A study of Mus musculus with 21 samples.

Results

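Immunoglobulin kappa variable genes were taken as every gene whose symbol begins with *Igkv* in the lymph node table, which gave 160 of 55491 genes. All 160 lie on chromosome 6 of GRCm38, between positions 67555497 and 70704177, from 22.3 to 3170.2 kb away from *Igkc*, the constant gene of the kappa light chain. The GENCODE M21 annotation lists 100 as functional V genes and 60 as pseudogenes, and 75 have the strand of *Igkc* while 85 have the opposite one. The symbol gives the family (the number before the hyphen), and 20 families were present.

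The libraries came from BALB/c wild-type (WT) mice and from *Ifnk* TG mice, which carry a transgene for the type I interferon IFNκ under the keratin 14 promoter of the epidermis. The TG mice were made on the C57Bl/6 background with a PiggyBac vector and backcrossed to BALB/c, and no separate founder lines are named in the labels. The 12 lymph node libraries were from inguinal, skin-draining nodes of WT without UV (replicates 1 to 3), TG without UV (4 to 6), WT with UV (7 to 9) and TG with UV (10 to 12), with no age given in the labels. UV groups received 250 mJ/cm2 UVB at 310 nm, after the back was shaved, on 3 days per week for 2 weeks and were observed for 2 more weeks. The 9 skin libraries were from untreated mice at 12 months, as WT skin (replicates 8 to 10), TG nonlesional skin (2 and 3) and TG lesional skin (4 to 7). Because the labels do not say which animal each library came from, the p-values below measure the spread between these libraries, which may be technical in part.

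Each B cell joins a kappa V gene to a J segment, and the joined exon is spliced to *Igkc* to encode the light chain of its antibody or B cell receptor. The V gene supplies most of the antigen-binding part of the chain, so the set of V genes in the RNA of a tissue reflects the mixture of B cells and plasma cells in it. Plasma cells hold far more immunoglobulin RNA per cell than resting B cells, and a clone of plasma cells yields many RNA copies of 1 V gene.

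Total counts were 27599809 to 36428435 in node libraries and 40499078 to 56511276 in skin libraries. All 12 B cell markers fixed for the check, among them *Cd79a*, had counts in every node library, with a summed level of 2939 to 5547 counts per 1000000 counts of the library (CPM). *Ifnk* had 0 counts in all 12 node libraries, so the transgene could not be used to check the genotype labels there. In skin, *Ifnk* had 0 counts in all WT libraries, 6 and 0 in nonlesional TG skin and 5 to 14 in lesional TG skin.

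The 3′ end of the V segment, from the codon of the conserved cysteine onwards, opens the third antigen-contacting loop of the light chain before the J segment is added. The germline ends below are the last 30 bases of annotated GENCODE M21 transcripts, 5′ to 3′, with capitals from the cysteine codon to the end of the segment. First come the 5 genes most used in nodes, which were *Igkv10-96* (chr6:68631963-68631992, minus strand), *Igkv1-117* (chr6:68121798-68121827, plus), *Igkv1-135* (chr6:67610479-67610508, plus), *Igkv19-93* (chr6:68736297-68736326, minus) and *Igkv1-110* (chr6:68271238-68271267, plus).
Igkv10-96: ctttTGCCAACAGGGTAATACGCTTCCTCC
Igkv1-117: ttacTGCTTTCAAGGTTCACATGTTCCTCC
Igkv1-135: ttatTGCTGGCAAGGTACACATTTTCCTCA
Igkv19-93: ttatTGTCTACAGTATGATAATCTTCTACC
Igkv1-110: tttcTGCTCTCAAAGTACACATGTTCCTCC
*Igkv10-94* (chr6:68704508-68704537, minus) and *Igkv1-133* (chr6:67725632-67725661, plus) are shown because they are close relatives of the most used genes with far lower usage.
Igkv10-94: ctatTGTCAGCAGTATAGTAAGCTTCCTCC
Igkv1-133: ttacTGCGTGCAAGGTACACATTTTCCTCA
The last set holds genes that led single skin libraries or came next to the lead, *Igkv6-32* (chr6:70074024-70074053, minus), *Igkv3-7* (chr6:70608007-70608036, plus), *Igkv6-17* (chr6:70371964-70371993, plus) and *Igkv4-90* (chr6:68807179-68807208, minus).
Igkv6-32: tttcTGTCAGCAGGATTATAGCTCTCCTCC
Igkv3-7: ttacTGTCAGCACAGTTGGGAGATTCCTCC
Igkv6-17: ttacTGTCAGCAACATTATAGTACTCCTCC
Igkv4-90: acTGTCAGCAAAGGAGTAGTTACCCACCCA

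A cysteine codon was found in the last bases of 98 of the 100 functional genes, followed by a stretch that made 26 bases in 67 genes and 28 bases in 21 genes, counted from the codon itself. These germline stretches took 86 different forms, and 22 genes shared theirs with another gene. The letters CCTCC closed 42% of the functional genes on the coding strand, and these genes held 52.69% of mean node usage. Over the whole transcript, the median identity of a functional gene to its closest relative was 94.51%, and 4 pairs reached at least 98% (*Igkv6-29* with *Igkv6-20*, *Igkv5-45* with *Igkv5-43*, *Igkv3-10* with *Igkv3-5*, and *Igkv8-26* with *Igkv8-18*). Reads of those 8 genes, which held 8.16% of node usage, could be divided between the partners by the count estimation, so their separate values are uncertain. Usage of close relatives was similar in some pairs and far apart in others. *Igkv1-117* and *Igkv1-110* were 97.51% identical and took 4.05% and 3.24% of node usage, and *Igkv3-12* and *Igkv3-7* were 96.66% identical and took 2.01% and 1.79%. *Igkv1-135* and *Igkv1-133* were 96.52% identical and took 3.68% and 0.228%, and *Igkv10-96* and *Igkv10-94* were 95.39% identical and took 4.70% and 1.01%, pairs chosen after their values were seen.

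Node libraries held 100382 *Igkv* counts, from 5201 to 12854 per library, spread over 118 of the 160 genes. Of the functional genes 99 had counts, with *Igkv1-35* at 0 in every library, whereas 41 of the 60 pseudogenes were at 0 and the other 19 held 0.295% of *Igkv* counts. Between 96 and 107 genes were detected per library, and 85 were detected in all 12. Usage, defined as the count of a gene divided by its annotated exon length and given as a percentage of the sum over all *Igkv* genes of a library, was spread widely: 18 genes made up 50% of it, 36 genes with at least 1% each made up 78.68%, and 39 further genes with counts had a mean under 0.1%.

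*Igkv10-96* was the most used gene, with a usage of 4.70% ± 0.593 (SD, n = 12), and it led in 10 of 12 libraries. Its usage was 5.09%, 4.89% and 4.88% in WT, 4.10%, 3.50% and 4.33% in TG, 5.2%, 4.93% and 5.44% in WT UV, and 5.42%, 4.23% and 4.36% in TG UV nodes. Both groups of TG nodes held values below all WT nodes, but TG UV replicate 10 had the next to highest value of all, so the genotypes overlapped.

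*Igkv1-117* followed with 4.05% ± 0.305 (SD, n = 12). It took 3.70%, 4.04% and 4.06% in WT, 3.95%, 4.55% and 4.41% in TG, 3.93%, 4.35% and 4.12% in WT UV, and 3.74%, 3.53% and 4.24% in TG UV nodes. It led in TG replicates 5 and 6, and all 4 groups overlapped. The rest of the leading genes were *Igkv1-135* (3.68% ± 0.342), *Igkv19-93* (3.55% ± 0.377), *Igkv1-110* (3.24% ± 0.287), *Igkv6-17* (3.20% ± 0.403), *Igkv6-32* (2.92% ± 0.387), *Igkv5-43* (2.91% ± 0.538), *Igkv12-44* (2.79% ± 0.276) and *Igkv3-4* (2.48% ± 0.237), all SD with n = 12. *Igkv1-135* and *Igkv19-93* differed by less than the SD of either, and so did each pair of neighbours from *Igkv1-110* to *Igkv12-44*, whereas the steps from *Igkv10-96* to *Igkv1-117* and on to *Igkv1-135* exceeded it for at least 1 gene. Among these genes *Igkv5-43* varied most relative to its mean, from 2.13% in TG UV replicate 11 to 4.06% in WT UV replicate 7, although its reads could be shared with *Igkv5-45*. *Igkv6-32* lay between 2.37% and 2.72% in the TG libraries without UV and between 2.66% and 3.73% in the others.

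**Figure D1:**
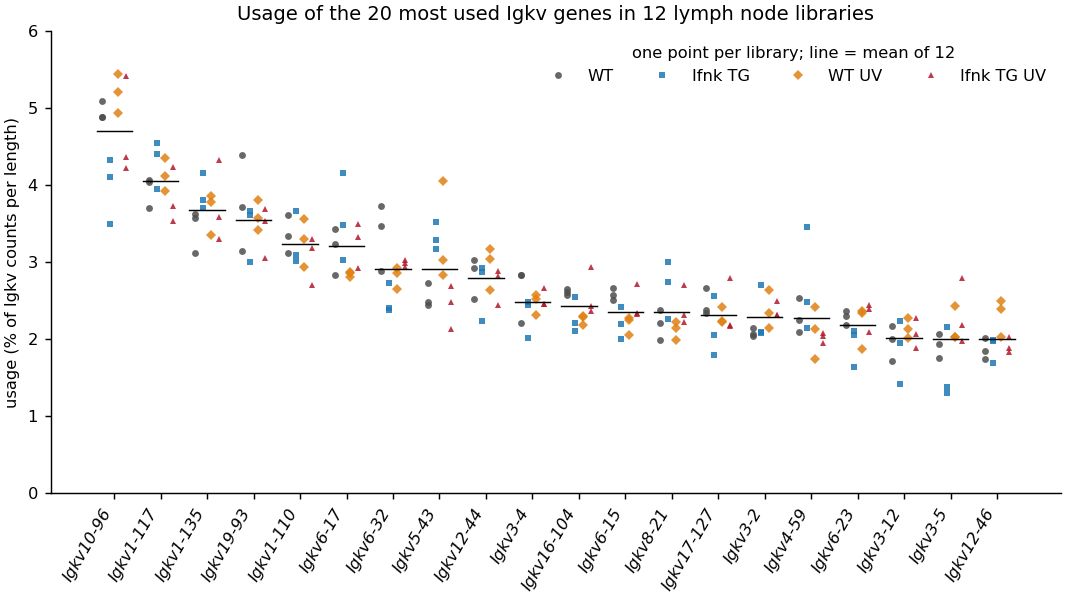
Usage of the 20 most used *Igkv* genes in the 12 lymph node libraries, as percentage of *Igkv* counts per exon length on the y axis, with 1 point per library coloured by group and a line at the mean of 12. Points of all 4 groups intermingle at nearly every gene, *Igkv10-96* is highest with a mean of 4.70%, and the next genes descend in small steps.

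No gene stood out in a single node library: none reached 4 times its median in the other 11 libraries at a usage of at least 1%. The closest were *Igkv6-13*, at 1.14% in TG replicate 6 against a median of 0.513%, a ratio of 2.23, and *Igkv8-30*, at 1.99% in TG replicate 5 against 1.06%, a ratio of 1.88.

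By family, the 33 genes of the *Igkv4* family together took 16.3% ± 0.514 of usage, the 9 of the *Igkv6* family 14.3% ± 1.03, the 13 of the *Igkv3* family 13.0% ± 0.841 and the 13 of the *Igkv1* family 12.3% ± 0.720 (SD, n = 12). The *Igkv10* family reached 5.87% ± 0.753 with 3 genes, all functional. The *Igkv13* family took 1.00% ± 0.139 with 18 genes, of which only 2 are functional. Along the locus, the 50 genes within 1000 kb of *Igkc* held 45.7% ± 0.736 of usage, the 57 genes between 1000 and 2000 kb held 21.8% ± 0.796, and the 53 genes farther away held 32.5% ± 0.677. In that order, these stretches hold 40, 31 and 29 functional genes. Genes on the opposite strand to *Igkc*, which are joined by inversion, held 55.5% ± 0.784. These regional shares varied by less than 3 percentage points over the 12 libraries.

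Family shares were compared between genotypes and treatments for the 16 families with at least 1% of usage, 32 exact permutation tests in all. The *Igkv8* family took 8.42% of usage in TG and 7.38% in WT nodes on average, a difference of 1.04 percentage points (two-sided exact permutation p = 0.01, adjusted p = 0.267). The same family was 0.850 percentage points lower with UV (p = 0.025), the *Igkv4* family 0.668 lower with UV (p = 0.02) and the *Igkv3* family 1.04 higher with UV (p = 0.045), by the same exact permutation test. No family difference passed after Benjamini-Hochberg adjustment over the 32 tests, where the lowest adjusted p was 0.267.

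The summed *Igkv* level did not differ detectably between node groups. It was 229, 282 and 276 CPM in WT nodes (mean 263 ± 29.0, SD, n = 3), 353, 148 and 253 CPM in TG nodes (251 ± 102), 265, 189 and 258 CPM in WT UV nodes (237 ± 41.9), and 239, 222 and 323 CPM in TG UV nodes (262 ± 54.0). The groups overlapped throughout, and the highest and the lowest library, TG replicates 4 and 5, belonged to the same group. UV changed the mean by -7.78 CPM (two-sided exact permutation test within genotype, p = 0.825) and the transgene by 6.68 CPM (within treatment, p = 0.86), where 400 arrangements allow a p of 0.005 at the lowest. Both signs turned when TG replicate 4 was left out (17.6 CPM for UV and -18.7 CPM for the transgene). In whole nodes, fewer B cells and less RNA per B cell cannot be told apart. The summed level of the 12 B cell markers was lowest in the same library, TG replicate 5 (2939 CPM), and highest in TG replicate 4 (5547 CPM), and per count of 9 B cell markers the spread of *Igkv* over libraries shrank from a coefficient of variation of 21.7% to 10.9%.

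Set against *Igkc*, the constant gene transcribed as part of the same RNA, *Igkv* counts separated the genotypes without overlap. *Igkv* counts per *Igkc* count were 0.723, 0.699 and 0.716 in WT nodes (mean 0.713 ± 0.0129, SD, n = 3), 0.777, 0.780 and 0.771 in TG nodes (0.776 ± 0.00450), 0.709, 0.658 and 0.690 in WT UV nodes (0.686 ± 0.0259), and 0.747, 0.752 and 0.745 in TG UV nodes (0.748 ± 0.00344). Every TG library lay above every WT library. The ratio was 0.0627 higher in TG nodes (0.762 ± 0.0158 against 0.699 ± 0.0236, SD, n = 6 each; two-sided exact permutation p = 0.005, the lowest that 400 arrangements allow; adjusted p = 0.0333 over 10 tests of single values in nodes). With UV it was 0.0276 lower (exact permutation p = 0.01, adjusted p = 0.0333), with overlap between treated and untreated libraries, and the effect of UV did not differ detectably between genotypes (difference -0.000896, p = 0.99, exact permutation test).

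**Figure D2:**
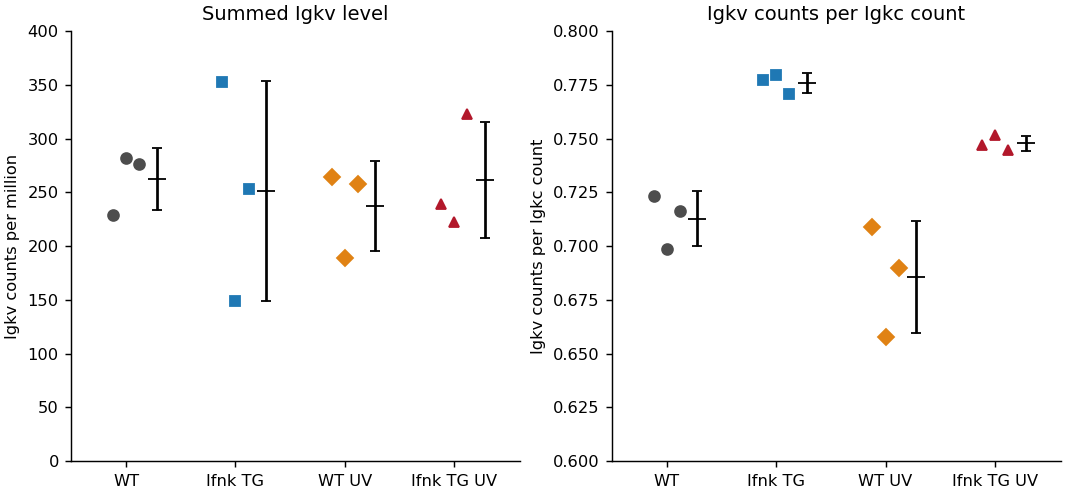
Left, summed *Igkv* level in CPM for each of the 12 node libraries by group; right, *Igkv* counts per *Igkc* count on an axis that begins at 0.600, with the mean ± SD of 3 libraries beside the points in both panels. The summed level overlaps between all groups from 148 to 353 CPM, whereas all 6 TG libraries (0.745 to 0.780) lie above all 6 WT libraries (0.658 to 0.723) in the ratio.

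The genotype difference in the ratio did not rest on a few genes or on 1 library. It was 0.0578 to 0.0653 with each gene left out in turn and 0.0558 to 0.0686 with each library left out, always with an exact permutation p of 0.005. Without the 10 most used genes it was 0.0497 (p = 0.005), and over these 10 alone 0.0130 (p = 0.025, exact permutation test). The UV difference was -0.0335 to -0.0207 with single libraries left out (exact permutation p from 0.005 to 0.02), and without the 10 most used genes it missed the threshold (-0.0168, exact permutation p = 0.065).

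The same ratio of V to C counts was taken for the other receptor chains of these nodes. Neither the lambda chain (genotype p = 0.215, UV p = 0.645), the heavy chain with *Ighm* and *Ighd* (p = 0.345 and 0.235), the T cell receptor beta chain (p = 0.16 and 0.195) nor the alpha chain (p = 0.47 and 0.865) passed by the same exact permutation test, and the difference between chains was not tested. In this family of 10 exact permutation tests the adjusted p of the kappa chain was 0.05 for both effects, which is not under the threshold of 0.05. Over the 10 tests of single values in nodes it was 0.0333 for both, so passing depended on the set of tests. Counted per B cell marker instead, *Igkv* was 0.0986 in TG and 0.0903 in WT nodes (exact permutation p = 0.2), and *Igkc* differed by 0.000295 (p = 0.97, exact permutation test). Kappa J segments had 0 counts in all 12 libraries, and no transcript of GENCODE M21 joins V to J or *Igkc*. Fragment lengths per library were not analysed here. The TG mice were made on C57Bl/6, the strain of the reference genome, and how much C57Bl/6 sequence they still carry at the kappa locus was not analysed here either. The part of both in the genotype difference of the ratio was not tested.

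Concentration of usage was almost the same in all node libraries. The effective number of *Igkv* genes, the inverse of the Simpson index, which equals the number of equally used genes that would give the same concentration, ranged from 45.4 to 48.1 (mean 46.6 ± 0.878, SD, n = 12). Group means were 46.1 in WT, 47.3 in TG, 46.1 in WT UV and 46.9 in TG UV nodes. The TG nodes were 1.03 higher (exact permutation p = 0.045, adjusted p = 0.09), and the difference missed the threshold in unadjusted form with plain count shares (p = 0.09) and when any of 10 of the 12 libraries was left out. UV changed it by -0.16 (p = 0.7, exact permutation test). The 10 most used genes of each library took 32.8% to 34.9% of usage, with no difference that passed by UV (exact permutation p = 0.225) or genotype (p = 0.145).

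The profile of usage over all genes was compared between libraries with the Bray-Curtis distance, which is 0 for identical and 1 for disjoint profiles. Libraries of the same group lay 0.0809 apart in the median (0.0690 to 0.120, 12 pairs), and libraries of different groups 0.0869 (0.0664 to 0.141, 54 pairs), so the ranges overlapped almost wholly. The profile nevertheless differed by UV within genotype (pseudo-F 1.45, exact permutation p = 0.01, the lowest that the arrangements allow; adjusted p = 0.0333), which was lost without TG UV replicate 10 (pseudo-F 1.28, p = 0.07, exact permutation test). For genotype the unadjusted value was p = 0.03 (pseudo-F 1.55, exact permutation test), which did not pass after adjustment (p = 0.075) and was lost without any of WT replicates 1 to 3, WT UV replicate 8 or TG UV replicate 11.

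Gene by gene, no *Igkv* gene was called in any node comparison. Of the 160 genes, 81 passed the filter on low counts, among 16173 genes tested with the quasi-likelihood test of edgeR at a Benjamini-Hochberg adjusted p under 0.05. WT UV against WT nodes called 4.98% of all genes and 0 *Igkv* genes; 0% of all genes were called in TG UV against TG, TG against WT, TG UV against WT UV and the interaction of UV and genotype. Pooled over treatments, TG against WT nodes called 0.00618% of all genes, which was 1 gene and no *Igkv* gene, and pooled over genotypes, UV against no UV called 8.61% and again 0 *Igkv* genes. At an unadjusted p under 0.05, edgeR and DESeq2 each found 1 *Igkv* gene in TG UV against TG, 2 in TG UV against WT UV, 1 for the transgene over both treatments, and 0 in the other comparisons.

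The fitted log2 fold changes of the 81 genes were unevenly split between higher and lower. In WT UV against WT nodes 16 were higher and 65 lower (median -0.21, against -0.01 over all genes), and in TG UV against TG nodes 51 were higher and 30 lower (0.12 against 0.02). In TG against WT 32 were higher and 49 lower (-0.09 against 0.00), and in TG UV against WT UV 66 were higher and 15 lower (0.20 against 0.01). These comparisons share control groups with each other. Single libraries set these directions: without TG replicate 5 the median turned to -0.20 in TG UV against TG and 0.17 in TG against WT, and without TG replicate 4 the same medians were 0.47 and -0.47. Without TG UV replicate 12 the median was -0.19 in TG UV against TG and -0.003 in TG UV against WT UV, where it was 0.06 without WT UV replicate 8. In TG against WT it was -0.17, -0.01 and -0.04 without WT replicates 1, 2 and 3 and -0.05 without TG replicate 6, and in TG UV against TG 0.08 without TG replicate 6 and 0.21 without TG UV replicate 10. The median of WT UV against WT stayed below 0 with each library left out and was -0.09 without WT UV replicate 8. When counts were scaled to the *Igkv* total of each library instead, the splits became 38 to 43, 38 to 43, 40 to 41 and 40 to 41, with medians from -0.04 to 0.00. That total contains these same genes, so medians near 0 follow from the scale and are no result about usage. With *Igkc* as the scale, the TG UV against TG split turned to 32 higher and 49 lower, and the TG against WT split turned to 51 higher and 30 lower. Pooled over treatments and scaled to *Igkc*, 64 genes were higher and 17 lower in TG nodes (median 0.12), and none passed (lowest adjusted p = 0.992, edgeR). This split restates the higher ratio of *Igkv* to *Igkc* counts in TG nodes and adds no separate support to it.

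**Figure D3:**
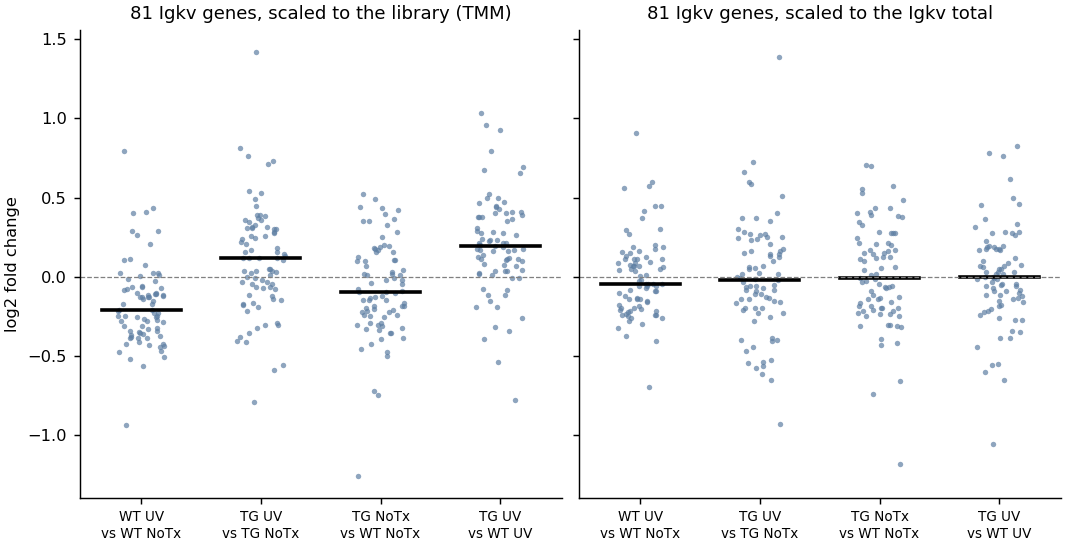
Fitted log2 fold changes of the 81 tested *Igkv* genes in 4 node comparisons, 1 point per gene, with black lines at the medians; counts are scaled to the whole library by TMM on the left and to the *Igkv* total on the right. The medians on the left run from -0.21 to 0.20 and those on the right from -0.04 to 0.00, and 0 of the 81 genes passed the adjusted threshold in either panel. The *Igkv* total contains the genes shown, so medians near 0 on the right follow from the scale.

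*Igkv6-14*, a gene of low usage, had the lowest unadjusted p of a pairwise comparison; it is named after its values were seen. It had 31, 31 and 28 counts in WT, 48, 30 and 30 in TG, 31, 24 and 27 in WT UV and 63, 39 and 63 in TG UV nodes. All 3 TG UV libraries exceeded all WT UV libraries. In this comparison 9.71% of all genes separated the groups in either direction, and 0% were called. *Igkv6-14* had a log2 fold change of 0.96 there (SE 0.286, adjusted p = 0.673, edgeR). The most used gene, *Igkv10-96*, had log2 fold changes of -0.10 (SE 0.299) in WT UV against WT, 0.31 (SE 0.300) in TG UV against TG, -0.39 (SE 0.300) in TG against WT and 0.03 (SE 0.299) in TG UV against WT UV nodes.

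Other genes of kappa rearrangement, transcription and B cell identity were read from lists beside the *Igkv* genes. Of the V(D)J recombination genes 0 of the 5 tested of 7 passed in any of the 7 node contrasts by edgeR, and *Rag1* and *Rag2*, which start rearrangement, had at most 20 and 2 counts per node library. The 9 regulators of kappa transcription, such as *Pou2af1* and *Spi1*, and the 6 lambda genes tested also gave 0 calls, and *Igkc* itself had log2 fold changes of -0.22 to 0.17 between the 4 pairs of groups. Among 12 B cell markers only *Cr2*, the complement receptor CD21, rose with UV over both genotypes (log2 fold change 0.42, SE 0.113, adjusted p = 0.0398, edgeR). Among the 9 tested of 10 plasma cell genes only *Sec11c*, a signal peptidase subunit, rose (0.40, SE 0.102, adjusted p = 0.0318, edgeR). UV over both genotypes called 8.61% of all genes, and the 7 node contrasts called between 0% and 8.61%.

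Germinal centre genes lay above 0 in the median with UV, by a log2 fold change of 1.71 in WT UV against WT and 0.58 in TG UV against TG nodes over 8 genes, and 0 of 8 passed in any contrast. Of the lists for other cells, *Cd5* of the T cell list (1 of 8) and the adipocyte gene *Fabp4* (1 of 2 tested) fell in WT UV against WT nodes and with UV over both genotypes. The myeloid (7 tested), keratinocyte (2) and mammary epithelial (1) lists gave 0 calls. Over all genes, WT UV against WT nodes called 4.98% and UV over both genotypes 8.61%. The part of these cell types in the UV difference of the *Igkv* to *Igkc* ratio and of the usage profile was not tested.

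Skin held far fewer *Igkv* counts than nodes, 1651 in all, with 0 from pseudogenes. Counts were 7, 0 and 213 in WT skin (0.152, 0 and 5.07 CPM), 244 and 1 in nonlesional TG skin (4.79 and 0.0239 CPM), and 73, 232, 805 and 76 in lesional TG skin (1.29, 5.73, 19.0 and 1.49 CPM). A count of 0 in WT replicate 9 allows a share of up to 6.82e-06% of that library, which like all intervals here covers counting error only. Lesional libraries averaged 6.88 ± 8.35 CPM (SD, n = 4) and nonlesional libraries of both genotypes 2.01 ± 2.67 CPM (n = 5), and WT replicate 10 and nonlesional replicate 2 exceeded 2 of the 4 lesional libraries. The difference of 4.88 CPM did not pass (two-sided exact permutation p = 0.190; the arrangements of 4 against 5 allow 0.00794 at the lowest).

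The 67 *Igkv* genes with counts in skin were all functional genes, and 22 of them appeared in only 1 library, 14 in 2 and 31 in at least 3. Only 3 had counts in all 4 lesional libraries. Concentration could be measured in the 6 skin libraries with at least 50 *Igkv* counts, where the effective number of genes was 10.1 in WT replicate 10, 6.77 in nonlesional replicate 2 and 11.9, 7.56, 9.58 and 2.39 in lesional replicates 4 to 7. Lesional and nonlesional libraries overlapped (difference -0.595, exact permutation p = 0.933, where 4 against 2 libraries allow 0.0667 at the lowest), as did the share of the 10 most used genes, from 73.1% to 100% (p = 0.867).

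Because skin libraries hold few *Igkv* counts, nodes and skin were compared at equal depth, by the number of different *Igkv* genes expected among 70 counts drawn from a library. That number was 38.5 to 39.3 in nodes (38.9 ± 0.246, SD, n = 12) and 6.76 to 23.1 in skin (18.2 ± 5.76, n = 6), with no overlap (two-sided exact permutation p = 5.39e-05, the lowest that 18564 arrangements allow). It was 19.5 in WT replicate 10, 19.6 in nonlesional replicate 2 and 19.7, 23.1, 20.4 and 6.76 in lesional replicates 4 to 7. The 6 node libraries without UV, the treatment state of all skin libraries, lay at 38.5 to 39.3 as well, while the part of age was not tested, since the labels give none for nodes. Node and skin counts were deposited as separate sets, so tissue cannot be told apart from any other difference between those sets.

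**Figure D4:**
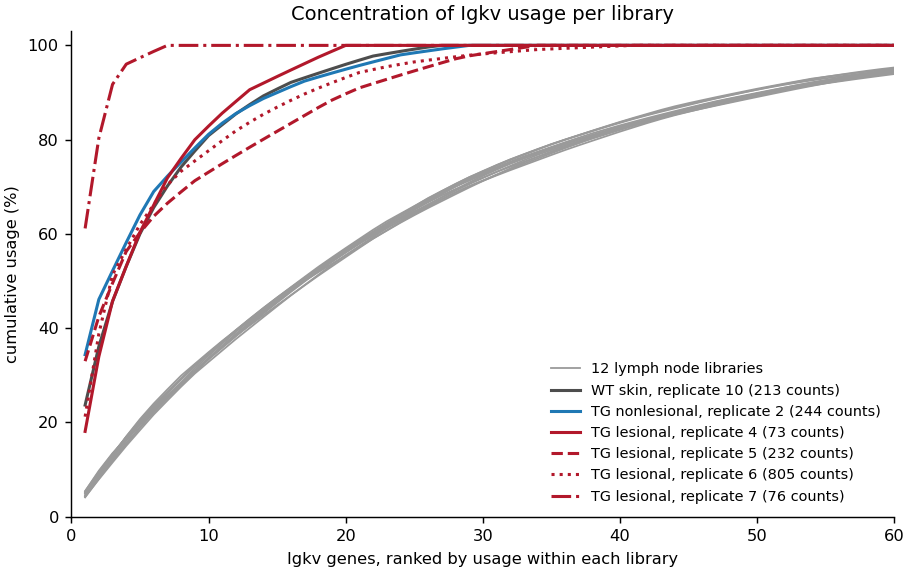
Cumulative *Igkv* usage in percent against the number of genes, ranked by usage within each library, for the 12 node libraries in grey and the 6 skin libraries with at least 50 *Igkv* counts in colour. The grey curves lie on top of each other, with 32.8% to 34.9% of usage in the first 10 genes, while the skin curves reach 73.1% to 100% there.

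The leading gene differed between all skin libraries with at least 50 *Igkv* counts, whereas genes below the lead were shared in part. *Igkv1-117* made 10.3% of *Igkv* counts in lesional replicate 5 and 11.8% in lesional replicate 7. *Igkv1-110*, which led in WT replicate 10, made 7.33% in lesional replicate 5. In lesional replicate 7, *Igkv1-135* made 47 of 76 *Igkv* counts, 61.8% (exact 95% binomial interval 49.98% to 72.75%), against 3.88% of the pooled *Igkv* counts of the nodes. In lesional replicate 5, *Igkv4-90* made 73 of 232 counts, 31.5% (25.5% to 37.9%), a gene that held 0.0699% to 0.246% of counts in the node libraries and had 0 counts in all other skin libraries. Lesional replicate 6, the library with most *Igkv* counts, was led by *Igkv3-7* with 168 of 805 counts, 20.9% (18.1% to 23.8%), followed by *Igkv6-17* with 18.1% and *Igkv5-39* with 11.9%. In lesional replicate 4, *Igkv10-96*, the leading gene of nodes, came first with 13 of 73 counts, 17.8% (9.84% to 28.5%).

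Skin without lesions showed the same kind of concentration. In nonlesional TG replicate 2, *Igkv6-32* made 84 of 244 counts, 34.4% (28.5% to 40.8%), and *Igkv4-79* another 11.5%, against 0.323% of the pooled node counts. In WT replicate 10, *Igkv1-110* made 54 of 213 counts, 25.4% (19.7% to 31.7%). The remaining libraries held too few counts for a share: *Igkv16-104* had 4 of 7 counts in WT replicate 8, and the only count of nonlesional replicate 3 fell on *Igkv2-137*. The leading genes of skin lay at both ends of the locus, from *Igkv1-135* at 3115.9 kb to *Igkv3-7* at 118.4 kb from *Igkc*.

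**Figure D5:**
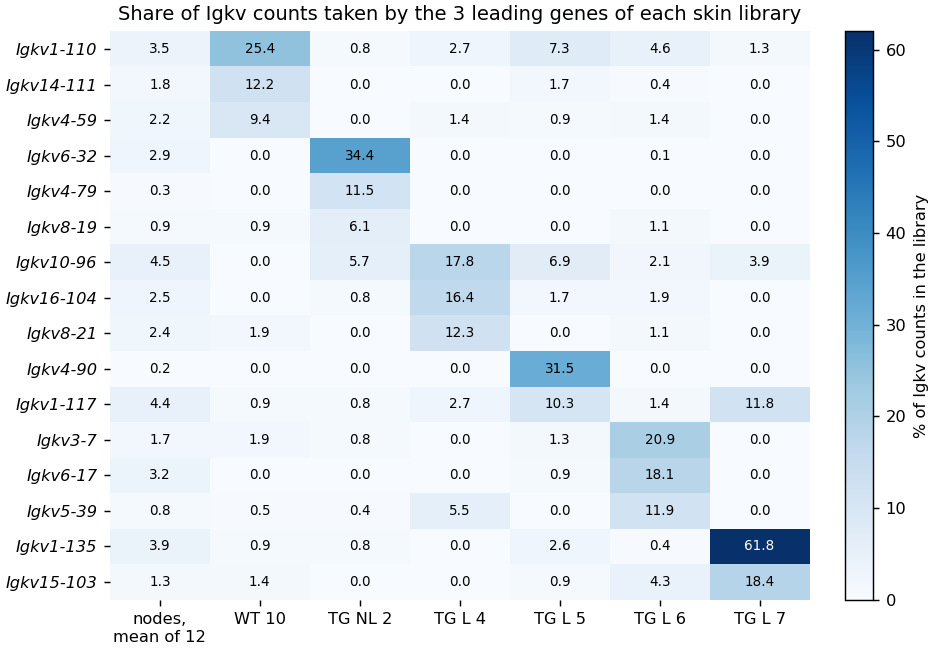
Share of *Igkv* counts in percent, printed in each cell and shown by colour, for the 3 leading genes of each skin library with at least 50 *Igkv* counts, with the mean of the 12 node libraries in the first column. Dark cells lie along a diagonal, such as 61.8% for *Igkv1-135* in lesional replicate 7 and 34.4% for *Igkv6-32* in nonlesional replicate 2, and most of these genes are near 0 in the other skin libraries.

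The 5 genes with the highest mean level in lesional skin followed from these single libraries. They were *Igkv3-7* (0.944 ± 1.84 CPM, SD, n = 4), *Igkv6-17* (0.817 ± 1.60), *Igkv5-39* (0.547 ± 1.05), *Igkv4-90* (0.450 ± 0.900) and *Igkv1-110* (0.322 ± 0.377). The SD exceeded the mean for all 5.

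Only 6 of the 160 *Igkv* genes passed the filter on low counts in skin, among 19101 genes tested. In lesional against WT skin 43.1% of all genes were called, and 2 *Igkv* genes were called higher by edgeR. No WT library held more than 2 counts of either, so both passed the filter only through TG libraries where they were high, and the calls are given as a description. *Igkv10-96* had 13, 16, 17 and 3 counts in lesional skin and 1, 0 and 0 in WT skin. Lesional and WT libraries did not overlap, which also held for 49.4% of all genes and for only 1 of the 6 tested *Igkv* genes. The level of *Igkv10-96* was 34.0 times higher in lesional libraries by summed counts (exact 95% counting interval 5.82 to 1369, fitted log2 fold change 4.64, SE 1.501, adjusted p = 0.0341, edgeR). *Igkv1-117* had 2, 24, 11 and 9 counts in lesional and 0, 0 and 2 in WT skin, with overlap, a ratio of 15.9 (4.17 to 136; fitted log2 fold change 3.78, SE 1.35, adjusted p = 0.0489). Nonlesional replicate 2 had 14 counts of *Igkv10-96*, more than 2 of the lesional libraries. In lesional against nonlesional TG skin 25.0% of all genes and 0 *Igkv* genes were called, and in nonlesional TG against WT skin 0% and 0. Both calls were lost without WT replicate 8, 9 or 10 or lesional replicate 5 or 6 (leaving 0 calls), and 1 call remained without nonlesional replicate 2 or 3 or lesional replicate 7.

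*Igkc* and *Jchain* were high in the skin libraries with high *Igkv*, while other plasma cell genes were not always so. *Igkc* had 10, 3 and 298 counts in WT, 344 and 5 in nonlesional and 99, 631, 2937 and 89 in lesional skin, and *Jchain*, which links secreted IgA and IgM, had 4, 8 and 267, then 170 and 3, and 104, 574, 3645 and 84. WT replicate 10, nonlesional replicate 2 and lesional replicates 5 and 6 were the 4 highest libraries for *Igkc*, *Jchain* and summed *Igkv* alike. *Mzb1*, a plasma cell chaperone, had 3, 2 and 3 counts in WT, 26 and 5 in nonlesional and 45, 23, 100 and 10 in lesional skin, so WT replicate 10 was as low as the other WT libraries. Of 10 plasma cell genes, *Sdc1*, *Creld2*, *Mzb1*, *Sec11c* and *Prdm1* were higher in lesional than in WT skin and *Irf4* was lower by edgeR, in a comparison that called 43.1% of all genes. The summed level of the list was 884 to 1323 CPM in lesional, 700.1 and 709 CPM in nonlesional and 485 to 517 CPM in WT skin, lowest in WT replicate 10. *Sdc1* and *Prdm1* are also expressed by keratinocytes, and *Igkc* itself did not pass (log2 fold change 3.04, SE 1.95, adjusted p = 0.244, edgeR). Of the 11 tested of 12 B cell markers *Blk* and *Cd22* rose and *Ighm* and *Ighd* fell.

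Among skin libraries with at least 50 *Igkv* counts, the ratio of *Igkv* to *Igkc* counts was lowest in the 2 lesional libraries with most *Igkc*. It was 0.715 in WT replicate 10, 0.709 in nonlesional replicate 2, and 0.737 and 0.854 in lesional replicates 4 and 7, but 0.368 in lesional replicate 5 and 0.274 in lesional replicate 6. The last of these also held 856 counts of *Iglv1* and 612 of *Iglc1*, lambda chain genes, and the most *Jchain* of all skin libraries. Their part in the lower ratio was not tested. Against the 43.1% called over all genes, the remaining lists in lesional against WT skin gave calls for 5 of 8 T cell genes (*Lck*, *Cd4*, *Cd5*, *Cd8b1* and *Cd8a*, all higher), 2 of 7 myeloid genes (*S100a8* and *S100a9*, higher), 2 of 5 keratinocyte genes (*Krt14* and *Krt1*, higher), 2 of 5 adipocyte genes (*Adipoq* and *Fabp4*, lower), 1 higher and 1 lower of 5 epithelial genes (*Epcam* and *Krt19*), 1 higher and 1 lower of 9 regulators of kappa transcription (*Tcf3* and *Ebf1*), 1 of 7 germinal centre genes (*Bcl6*, lower) and none of 5 recombination or 4 lambda genes.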

How the data were processed

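RNA was measured by poly-A sequencing of paired 151-base reads. Per the labels and the study's methods, the authors trimmed reads with cutadapt 4.8, aligned them to GRCm38 with STAR 2.7.8a and deposited RSEM 1.3.3 expected counts per gene, as whole numbers without normalization. The annotation release is not given in the sources used here, and GENCODE M21 positions, lengths and transcripts matched all 160 members. RSEM assigns only fragments inside an annotated transcript, reads of BALB/c mice were placed on the C57BL/6 reference, and strand use is not given.

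All 21 columns were used and 0 were left out. Counts were tested over the whole table of each tissue with edgeR 4.0.16 in R 4.3.3 (TMM, filterByExpr, quasi-likelihood test, Benjamini-Hochberg adjustment, threshold 0.05), and with DESeq2 1.42.0 as alternative. CPM is counts per 1000000 counts of the library. Values per library (summed level, concentration, profile distance, *Igkv* per *Igkc*) were compared by two-sided exact permutation within genotype or treatment in Python 3.11.15 with SciPy 1.17.1, identities were computed with Biopython 1.88, and shares have exact binomial intervals. Concentration needed at least 50 *Igkv* counts, so 4 lesional were compared with 2 nonlesional libraries, where 4 against 5 had been planned. Recombination signals and promoters of V genes were not analysed here, and V ends are shown in their place. Between libraries of a node group, chi-square per degree of freedom was 1.41 to 3.45 over *Igkv* counts and 13.9 to 94.1 over all other genes, where counting noise alone gives a value near 1, so no library was treated as a duplicate.

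Named genes were the 10 most used in nodes, the leading gene of each library, single-library peaks (at least 1% and 4 times the median of other node libraries), up to 5 called genes in each direction per comparison, and the 5 highest in lesional skin. Others were chosen after their values were seen. Members, lists and tests were chosen with earlier results of these data known. The fits were tested on simulated data.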

Additional observations from a re-analysis of the deposited data

Results flagged for a closer look

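In lesional skin (n = 4), the gap of the highest or lowest library to its nearest neighbour was set against the range of the group for 12 values, the summed measures and the named genes, and 5 exceeded Dixon's 95% critical value for that group size. Chance exceeds it in about 1 of 20 groups, but these 5 genes were named for leading 1 lesional library or for their lesional mean, so that rate does not apply and the values are a description. *Igkv3-7* reached 3.97 CPM, *Igkv6-17* 3.45 CPM and *Igkv5-39* 2.27 CPM in lesional replicate 6, far above the other 3 libraries. *Igkv4-90* reached 1.80 CPM in lesional replicate 5, and *Igkv1-135* 0.921 CPM in lesional replicate 7. No tested difference of effects between genotypes in nodes had a p under 0.05 (0 of 4).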

How the results depend on the processing

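No *Igkv* gene was called in any of 144 alternative fits of the 7 node contrasts, with 67 to 118 genes tested and at most 14 of them under an unadjusted p of 0.05. In lesional against WT skin 2 calls became 1 with RLE scaling, 1 without a filter and 1 with the compared groups alone, and 0 to 2 with each library left out. In lesional against nonlesional skin 1 gene was called (lower) without a filter, and 0 to 1 with libraries left out. As *Igkv* per *Igkc* the UV difference of the summed level passed in unadjusted form (-0.0276) and so did that of genotype (0.0627). With each library left out the UV difference in CPM ran from -33.51 to 17.59 and the genotype difference from -18.68 to 32.41; signs turned without TG replicate 4, WT UV replicate 8 or TG UV replicate 11 (UV: 17.59, 4.288 and 2.038) and without WT replicate 1, TG replicate 4, WT UV replicate 8 or TG UV replicate 12 (genotype: -1.656, -18.68, -5.385 and -8.714). The UV difference in effective number was 0.005365 by Shannon index, 0.2178 without the most used gene and 0.1643 without TG UV replicate 10 (range -0.4381 to 0.1643); that of genotype was 0.857 with plain count shares, 0.601 by Shannon index and 0.429 without the most used gene, all short of the threshold, and 0.7555 to 1.358 with libraries left out. In skin the effective number differed by 0.008854 without the most used gene, 1.093 without WT replicate 10 and 1.229 without lesional replicate 7 (range -2.282 to 1.229), and the share of the top 10 by -3.124 without lesional replicate 7 (range -3.124 to 5.844). The genotype difference of the top 10 share passed without TG replicate 6 (-0.742; range -0.7416 to -0.3976). Pseudo-F with libraries left out was 1.284 to 1.56 for UV and 1.343 to 1.71 for genotype. The UV difference in *Igkv* per *Igkc* was -0.0168 without the 10 most used genes (p = 0.065, exact permutation test). The cause of these changes was not tested. *Igkv10-96* and *Igkv1-117* in lesional against WT skin kept their direction and missed the threshold in 13 alternatives. At least 10 counts in every library left 0 *Igkv* genes in skin, the compared groups alone left 0 in nonlesional against WT skin, and scaling to the *Igkv* total was not run in skin because WT replicate 9 has 0 *Igkv* counts; in nodes it moved the median of all genes by up to 0.42. No paired analysis was possible because the labels do not name the animal of each library. Lesional and nonlesional TG skin of the same mouse, if present, was therefore treated as independent. Depth limits the skin values, where 3 of 9 libraries hold under 50 *Igkv* counts.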
